A study of Oncorhynchus mykiss with 6 samples.

Results

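The miRNAs miR-142, miR-223 and miR-150 were followed in small RNA libraries from the livers of rainbow trout (Oncorhynchus mykiss), a cold-water salmonid, after warming to 24 °C and at 18 °C. Every listed name that equals one of these 3 families, once its ending in x, y or z is removed, was taken. This gave 7 of 2730 names: miR-142-x and miR-142-y, miR-223-x and miR-223-y, and miR-150-x, miR-150-y and miR-150-z. The heat group comprised 3 libraries from fish in tanks whose water was raised by 1 °C per day until it reached 24 °C, and the control group 3 libraries from fish that stayed at 18 °C. Per the labels, fish of both groups were 150 days old with a mean weight of 200 g, had all been held at 18 °C before being divided, and were killed with an overdose of the anaesthetic MS-222. The labels speak of 12 female fish, and do not say which fish, how many or which tank went into each library, so p-values measure the spread between libraries, which may be technical.

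These miRNAs are classed as blood-cell miRNAs from work in mammals. There, miR-142 is made in nearly all cells of the haematopoietic lineage and both strands of its hairpin are used. miR-223 is typical of the myeloid lineage, above all neutrophils, and miR-150 of mature lymphocytes, where it represses the transcription factor Myb in the mouse. A whole piece of liver holds blood and resident immune cells among the hepatocytes, and a bulk library cannot tell fewer cells of a type from less of an miRNA per cell.

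The sequences define which molecules were counted. They are given as deposited, 5′ to 3′ with T for U, with the seed (bases 2 to 8), which pairs with target mRNAs, in capitals.
miR-142-x: cATAAAGTagaaagcactact
miR-142-y: tGTAGTGTttcctactttatgg
miR-223-x: tGTATTTGacaagctgagttgg
miR-223-y: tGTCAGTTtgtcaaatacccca
miR-150-x: tCTCCCAAtccttgtaccagtgt
miR-150-y: cGCTGGGCagggtttgggggggg
miR-150-z: aCTCCCAAtccttgtaccagtgt
The files do not define the endings. When miR-142-x was laid against the reverse complement of miR-142-y without gaps, 18 of 21 bases matched, with a longest complementary run of 10 bases. For miR-223 15 of 19 bases matched and the run was 11. Of 126 families with both an x and a y name, 14.3% had a run of at least 10 and 7.14% of at least 11, with a median of 7. For miR-150-x and miR-150-y the run was 5, a length that 91.3% of families reached. miR-150-y ends in 8 G bases, whereas miR-150-z differs from miR-150-x by T1A alone (numbered from the 5′ end, with the miR-150-x base first) and shares its seed. The miR-142-x seed occurred under 2 further names, which share the first 19 bases of miR-142-x.
miR-3964-y: cATAAAGTagaaagcactaa
miR-3969-x: cATAAAGTagaaagcactata
Over the 6 libraries miR-3964-y had 49 counts and miR-3969-x had 2, against 121430 for miR-142-x, so these names took 0.0404% and 0.00165% of its count. The seeds of miR-142-y, miR-223-x, miR-223-y and miR-150-y occurred under no other name.

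Total counts ranged from 9267658 to 12778484 per library. The hepatocyte miRNA miR-122-x was the most abundant name in every library, at 18.5% to 28.6% of counts. A pair of libraries stood apart across the temperatures: heat replicate 1 and control replicate 2 had TMM scaling factors of 1.24 and 1.25, against 0.87 to 0.92 in the other 4 libraries, and 2157 and 2077 names detected, against 1579 to 1701. They also had the highest total counts, 12778484 and 11894384, against 9267658 to 11117223, and more names can be detected in a deeper library. Levels are given in CPM, the count divided by the TMM-scaled library size and multiplied by 1000000. A read stands for 1 mature miRNA of 21 to 23 bases, so no scaling for length was made. How efficiently each sequence enters a library is unknown, so levels of different names are levels of counted reads.

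miR-142-x was the most abundant of the 7 names. It measured 2370, 814 and 1219 CPM in heat replicates 1 to 3, against 2553, 2183 and 1095 CPM in control replicates 1 to 3. Heat replicate 1 thus lay with the 2 high controls, and control replicate 3 lay between heat replicates 2 and 3. The group means were 1467 ± 807 CPM in heat and 1944 ± 758 CPM in control (SD, n = 3 each). The fitted log2 fold change of heat over control was -0.41 ± 0.45 (SE, 95% interval -1.45 to 0.64), with an adjusted p of 0.995 in edgeR's quasi-likelihood test.

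miR-142-y, the less abundant strand, split the libraries the same way with wider spacing. Its levels were 176, 28.6 and 47.2 CPM in heat replicates 1 to 3 and 147, 162 and 48.4 CPM in control replicates 1 to 3. The 3 libraries with high values (heat replicate 1, control replicates 1 and 2) and the 3 with low values were the ones of miR-142-x. Means were 84.0 ± 80.4 CPM in heat and 119 ± 61.8 CPM in control (SD, n = 3), and the fitted log2 fold change was -0.50 ± 0.72 (SE; its 95% interval ran from -2.18 to 1.17). From lowest to highest library, miR-142-y spanned 6.15-fold and miR-142-x 3.14-fold.

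miR-223-y carried most of the miR-223 reads, with 63.8, 21.9 and 38.9 CPM in heat replicates 1 to 3 and 45.5, 79.3 and 36.4 CPM in control replicates 1 to 3. The highest value was in control replicate 2 and the next in heat replicate 1, so the groups overlapped. The means of miR-223-y, of a family typical of myeloid cells in mammals, were 41.5 ± 21.0 CPM in heat and 53.7 ± 22.6 CPM in control (SD, n = 3). Its log2 fold change was -0.37 ± 0.48 (SE), within a 95% interval of -1.48 to 0.74.

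miR-223-x was counted 18, 8 and 12 times in heat replicates 1 to 3 and 18, 21 and 17 times in control replicates 1 to 3. Scaled, these counts are 1.14, 0.992 and 1.29 CPM in heat and 2.03, 1.41 and 1.72 CPM in control. On the CPM scale it was the only one of the 7 names whose heat libraries all lay below the controls, a state shared by 3.07% of the 651 names tested, while 8.29% lay wholly on either side. As a percentage of total counts its groups were apart too, at 8.6e-05 to 0.000141 in heat and 0.000153 to 0.000186 in control. The groups overlapped per 1000 miR-122 counts, where heat replicate 1 had 0.00605 and control replicate 3 had 0.00534. They also overlapped per 1000 erythrocyte miRNA counts, where heat replicate 1 had 0.269 and control replicate 2 had 0.210. On the CPM scale, heat replicate 3 and control replicate 2 lay on either side of the gap between the groups. Their exact Poisson 95% intervals overlapped, at 0.67 to 2.25 CPM and 0.87 to 2.16 CPM. These are the closest libraries of the groups, and whether counting error accounts for the order of all 6 libraries was not tested. The log2 fold change was -0.58 ± 0.44 (SE), within a 95% interval of -1.60 to 0.44, with an adjusted p of 0.995 in edgeR. The Poisson intervals, unlike that of the fold change, leave out the spread between libraries. They also take reads as independent, though reads that carry no molecular identifier can be copies of each other.

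miR-150-x, of a family typical of lymphocytes in mammals, had another order of libraries. It measured 160, 83.1 and 111 CPM in heat replicates 1 to 3 and 201, 39.9 and 167 CPM in control replicates 1 to 3. Control replicate 2, which was high for both strands of miR-142 and highest for miR-223-y, was the lowest of all 6 here, and control replicate 3 was among the high ones. Means were 118 ± 38.9 CPM in heat and 136 ± 85.1 CPM in control (SD, n = 3). The fitted log2 fold change was -0.21 ± 0.56 (SE, 95% interval -1.50 to 1.09), whereas the difference of the mean log2 levels was 0.05, of the opposite sign.

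The other miR-150 names were near the limit of counting and did not enter the test, as they missed the count filter. miR-150-y had 21, 2 and 2 counts in heat replicates 1 to 3 and 6, 2 and 0 counts in control replicates 1 to 3. miR-150-z had 8, 0 and 0 counts in heat and 4, 2 and 10 counts in control, 0.290% of the miR-150-x count in all. No count of 1 occurs in any library, so the meaning of a listed 0 below 2 counts is unknown.

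**Figure D1:**
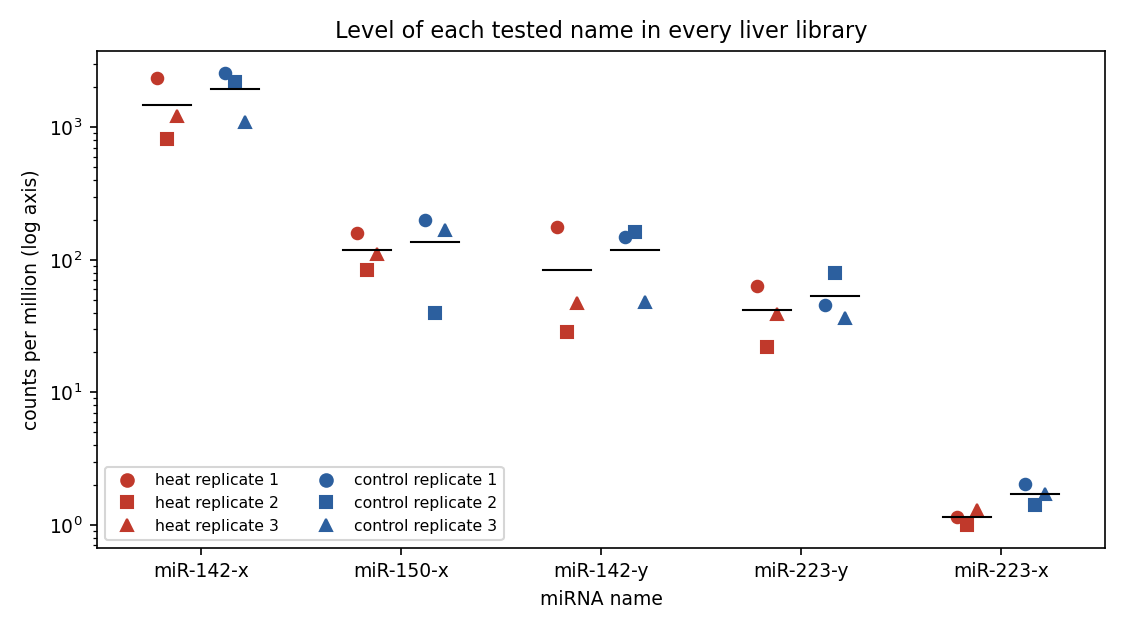
CPM (log axis) of the 5 tested names in each liver library, heat left of control, with a symbol per replicate and a bar at the group mean of 3 libraries. Heat and control overlap for every name but miR-223-x, which lies between 0.992 and 2.03 CPM, and control replicate 2 is the lowest library for miR-150-x.

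By mean level the order was miR-142-x, miR-150-x, miR-142-y, miR-223-y and miR-223-x, followed by miR-150-y and miR-150-z. miR-142-x lay above the other 6 names in 6 of 6 libraries, and its lowest library, at 814 CPM, was above the highest of miR-150-x, at 201 CPM. In rank among all 2730 names it stood between 28 and 51. miR-150-x and miR-142-y were not separated: their ranges overlapped, and miR-150-x was the higher in 4 of 6 libraries. miR-142-y exceeded miR-223-y in 6 of 6 libraries although their ranges overlapped across libraries. miR-223-y in turn was above miR-223-x everywhere, with a lowest value of 21.9 CPM against a highest of 2.03 CPM.

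Whether warming changed these miRNAs was asked in the fit over all 651 names that passed the count filter, 5 of which are names of miR-142, miR-223 and miR-150. None of the 5 passed an adjusted p of 0.05 in edgeR, and 0% of all names tested did. At an unadjusted p under 0.05 the count was again 0 of 5, against 3.07% of the 651. The DESeq2 Wald test called 2 names, neither of them among these 5. All 5 had a fitted fold below 1, with a median log2 fold change of -0.41, whereas 52.8% of all names tested had a fold below 1 and their median was -0.02. Among the 249 names of known families the share was 64.7% and the median -0.12. The 5 names are strands of 3 hairpin families in the same libraries, so they are not 5 independent values.

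Summing the names of a family added no call. The miR-142 family had 2546, 842 and 1266 CPM in heat replicates 1 to 3 and 2700, 2345 and 1144 CPM in control replicates 1 to 3. In the fit over 404 families and predicted sequences its log2 fold change was -0.37 ± 0.49 (SE), within a 95% interval of -1.52 to 0.78. That fit had TMM factors of its own, whereas the family CPM use those of the fit over names. Differences between family and name fold changes thus also hold a difference in scaling. For the miR-223 family it was -0.34 ± 0.50 (95% interval -1.49 to 0.81) and for the miR-150 family -0.16 ± 0.58 (95% interval -1.50 to 1.18). Each had an adjusted p of 0.999 in edgeR, in a comparison where 0% of the 404 were called and 1.98% had an unadjusted p under 0.05. The intervals include no change, and they include a log2 fold change of -1 for each family as well, so a fall of that size is not excluded. Without heat replicate 1 the miR-142 family was at -1.01 (unadjusted p = 0.0622 and adjusted p = 0.854 in edgeR), and without heat replicate 2 at -0.11.

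**Figure D2:**
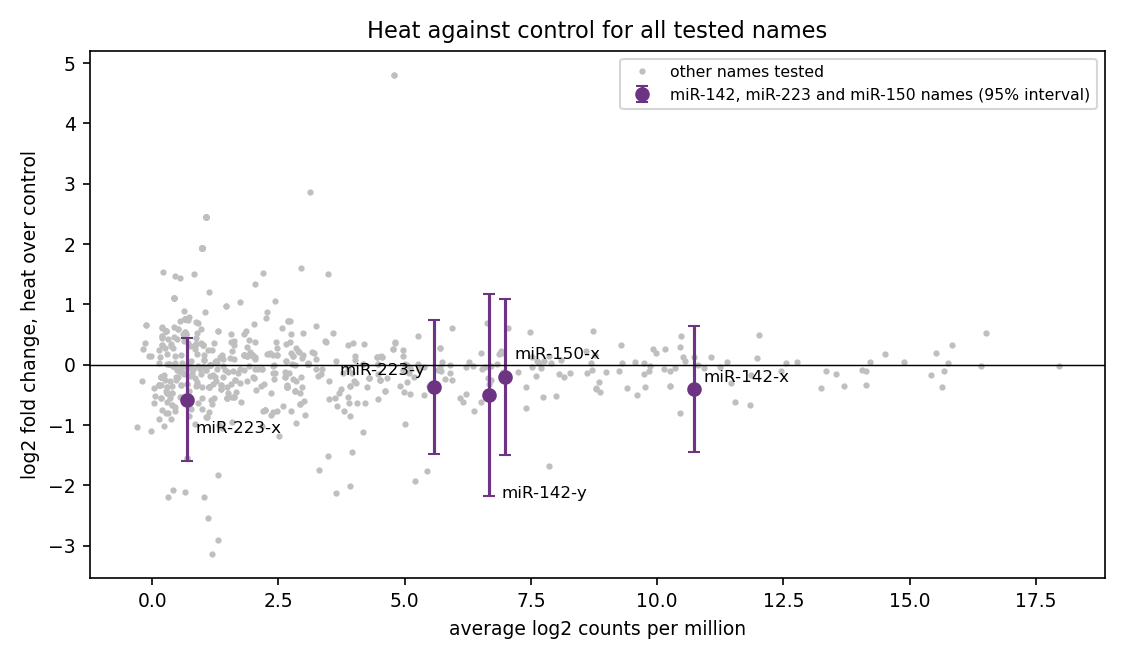
Log2 fold change of heat over control against average log2 CPM for the 651 tested names (grey) and the 5 names of miR-142, miR-223 and miR-150 (purple, with 95% intervals). The 5 values lie between -0.58 and -0.21 and every interval spans 0.

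The fitted values depended on which libraries entered. Without heat replicate 1 the log2 fold change of miR-142-x was -0.91 and that of miR-142-y -1.63 ± 0.60 (SE, unadjusted p = 0.0324 and adjusted p = 0.547 in edgeR). In that setting 6.87% of names had an unadjusted p under 0.05. Without heat replicate 2 these values were -0.10 and -0.09. With heat replicate 1 and control replicate 2 both left out, miR-150-x stood at a log2 fold change of -0.96 ± 0.25 (SE, unadjusted p = 0.0135 and adjusted p = 0.530 in edgeR), beside 8.66% of names at an unadjusted p under 0.05. The other values in that setting were -0.88 for miR-142-x, -1.40 for miR-142-y, -0.46 for miR-223-y and -0.74 for miR-223-x. Without control replicate 1, miR-150-x was at 0.14, and without control replicate 2, miR-223-y was at 0.01.

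**Figure D3:**
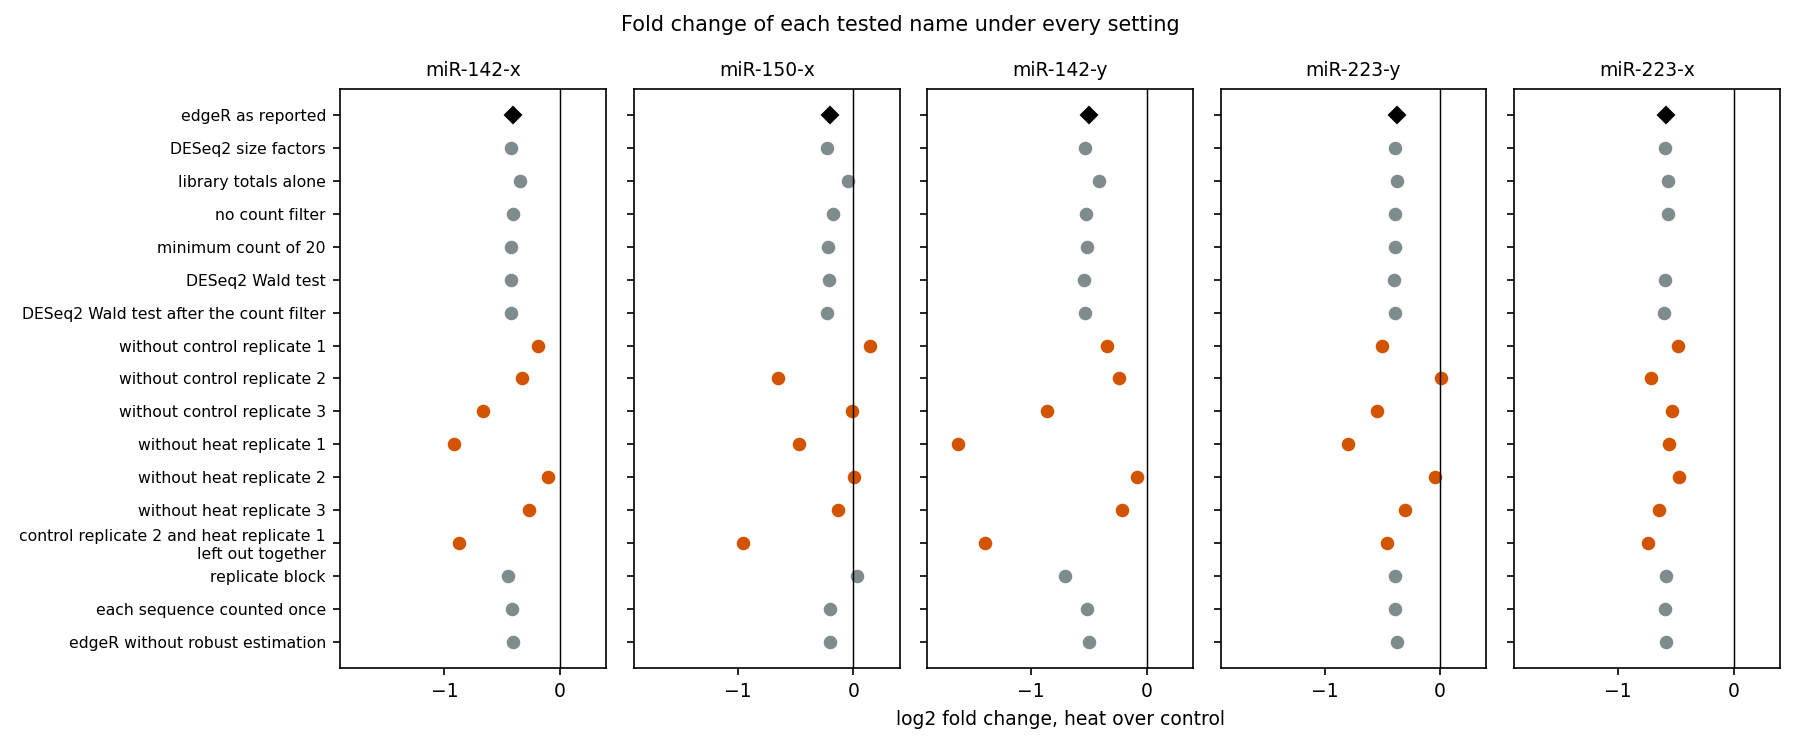
Log2 fold change of heat over control for the 5 tested names under each setting: edgeR as reported (black), other scalings, filters and tests (grey), and fits with libraries left out (orange). Values of miR-142-x, miR-142-y and miR-223-x stay below 0 in every setting drawn, while miR-150-x and miR-223-y cross it.

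Ratios of counts within a library do not depend on scaling. The miR-142-x count was 13.4, 28.4 and 25.8 times the miR-142-y count in heat replicates 1 to 3 and 17.3, 13.5 and 22.6 times in control replicates 1 to 3. The lowest ratios, 13.4 and 13.5, thus belonged to the libraries that stood apart. The mean log2 ratio was 4.42 ± 0.59 in heat and 4.12 ± 0.37 in control (SD, n = 3, two-sided exact permutation p = 0.6, which cannot fall below 0.1 for 3 libraries against 3).

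For miR-223 the dominant strand is y, and its count was 56.1, 22.1 and 30.2 times that of miR-223-x in heat replicates 1 to 3 and 22.4, 56.2 and 21.2 times in control replicates 1 to 3. The same pair of libraries was extreme here, with the rarer strand at its lowest share. In miR-142, by contrast, these libraries had the rarer strand at its highest share. The mean log2 ratio of x over y was -5.06 ± 0.68 in heat and -4.90 ± 0.79 in control (SD, n = 3, two-sided exact permutation p = 0.8). Over 73 known families with both strands tested and counted in every library, an analysis chosen after the data were seen, 32.9% had their lowest ratio of major to minor strand in heat replicate 1 and control replicate 2, as miR-142 did, and 11.0% their highest, as miR-223 did. The part of these libraries in the strand ratios was not tested beyond this count.

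The families were also set against each other. The miR-142 count was 39.2, 36.7 and 31.5 times the miR-223 count in heat replicates 1 to 3 and 56.8, 29.0 and 30.0 times in control replicates 1 to 3. Control replicate 1 was the exception in an otherwise narrow range. The mean log2 ratio of miR-223 to miR-142 was -5.16 ± 0.16 in heat and -5.20 ± 0.55 in control (SD, n = 3, two-sided exact permutation p = 1).

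From lowest to highest library the ratio of miR-150 spanned 8.88-fold to miR-223 and 8.59-fold to miR-142, against 1.96-fold for miR-223 to miR-142. The miR-150 count was 2.49, 3.63 and 2.77 times the miR-223 count in heat replicates 1 to 3 and 4.26, 0.498 and 4.42 times in control replicates 1 to 3. Control replicate 2 alone had more miR-223 than miR-150, and elsewhere the ratio stayed between 2.49 and 4.42. The mean log2 ratio was 1.55 ± 0.28 in heat and 1.07 ± 1.80 in control (SD, n = 3, two-sided exact permutation p = 1). For miR-150 over miR-142 it was -3.61 ± 0.33 in heat and -4.12 ± 1.59 in control (SD, n = 3, two-sided exact permutation p = 0.8). After Benjamini-Hochberg adjustment over the 5 ratios every p was 1.

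**Figure D4:**
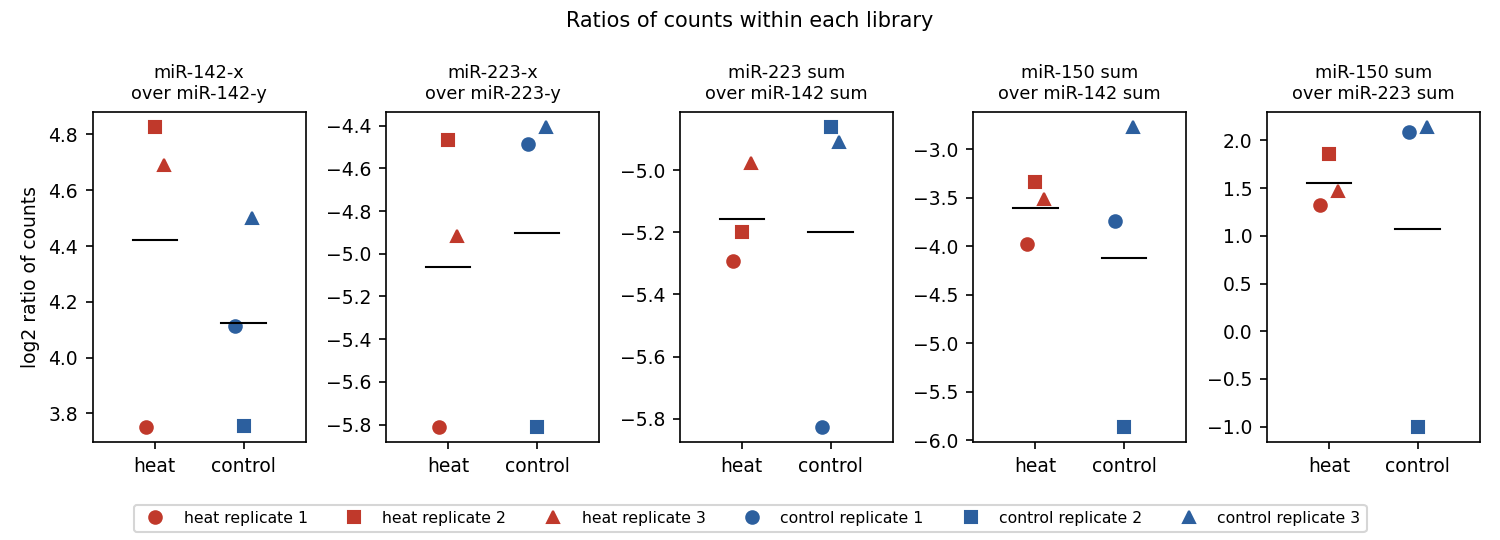
Log2 ratio of counts within each library for the 5 ratios, heat left of control, with a symbol per replicate and a bar at the group mean of 3 libraries. Heat replicate 1 and control replicate 2 sit together at the low end of both strand ratios, and control replicate 2 lies far below the others for the ratios with miR-150.

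Across the 6 libraries, log2 levels of the miR-142 and miR-223 families had a Pearson r of 0.86 (exact permutation p = 0.0306, adjusted p = 0.0917 over 3 pairs) and a Spearman rho of 0.77 (exact permutation p = 0.103, adjusted p = 0.308). Without the 2 libraries farthest from the median of miR-142, heat replicate 2 and control replicate 1, r was 0.95. That value keeps heat replicate 1 and control replicate 2, which stood apart and were above the mean for both families. Heat replicate 3 and control replicate 3 were below it, so this r cannot show whether the likeness holds without the pair that stood apart. miR-142 and miR-150 had an r of 0.10 (exact permutation p = 0.814, adjusted p = 0.814) and a rho of 0.43 (exact permutation p = 0.419, adjusted p = 0.629). Their r was -0.41 without heat replicate 2 and control replicate 1. That value keeps control replicate 2, where the deviation from the mean log2 level was 0.51 for miR-142 and -1.49 for miR-150. For no pair was r computed without control replicate 2 alone. The values with miR-150 thus cannot show whether its lack of likeness to the other families holds beyond that library. For miR-223 and miR-150 r was -0.23 (exact permutation p = 0.656, adjusted p = 0.814) and rho -0.14 (exact permutation p = 0.803, adjusted p = 0.803), with r = 0.29 without heat replicate 2 and control replicate 2. The libraries of both groups are pooled in these values and share their scaling factors. No pair passed after adjustment.

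Of 244 other known names tested, the 3 most like the miR-142 family by Pearson r of log2 CPM over the 6 libraries were miR-128-x (0.97), miR-125-y (0.97) and miR-99-y (0.97). Those most like the miR-223 family were miR-9-z (0.96), miR-15-y (0.96) and miR-194-y (0.95), and those most like the miR-150 family miR-2478-y (0.95), miR-23-x (0.93) and miR-210-y (0.92). These are the extremes of many comparisons over few libraries and are given as a description. Some had few reads: over the 6 libraries miR-128-x measured 1.49 to 5.05 CPM, miR-9-z 2.23 to 6.52 CPM and miR-23-x 1.54 to 4.42 CPM. miR-194-y measured 83.4, 35.1 and 50.1 CPM in heat replicates 1 to 3 and 58.8, 140 and 61.1 CPM in control replicates 1 to 3, with its 2 highest values in the libraries that stood apart. miR-2478-y had its lowest value, 219 CPM, in control replicate 2, as miR-150-x did, against 363.7 to 549 CPM elsewhere.

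Other miRNAs of immune cells were compared as a list of miR-146 and miR-155, both induced in inflammatory signalling, and miR-181, which is high in lymphoid progenitors of the mouse. None of its 5 tested names of 6 was called. All 5 had a fitted fold below 1, with a median log2 fold change of -0.34, and no unadjusted p was under 0.05. Among all known names tested 64.7% had a fold below 1, with a median of -0.12, and strands of the same family are not independent values. The summed level of the 6 names was 49565 to 63831 CPM in heat and 58835 to 76806 CPM in control, most of it miR-181-x and miR-146-x. Mean levels in heat and control were 41478 and 46468 CPM for miR-181-x and 15960 and 20176 CPM for miR-146-x. Those of miR-142-x were 1467 and 1944 CPM. Which cells of the liver the reads of the list came from was not tested. miR-142 was high in the libraries that stood apart and in control replicate 1. In CPM the sum was 49565 in heat replicate 1, its lowest value, 66082 in control replicate 2, its second highest, and 58835 in control replicate 1. The high TMM factors of the libraries that stood apart lower their CPM. As a share of total counts, the sum was not lowest in heat replicate 1 and was highest in control replicate 2. The names of the list did not move together on the CPM scale. miR-181-x, its most abundant name, measured 33259 CPM in heat replicate 1 and 35664 CPM in control replicate 2, below the other libraries. miR-155-x had its 2 highest values there, 18.2 and 34.7 CPM. As a share of total counts, neither library was the lowest for miR-181-x, while both were still the highest for miR-155-x.

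Erythrocytes, which keep their nucleus in fish, are the most numerous blood cells, and their miRNAs miR-144, miR-451 and miR-486 were listed for comparison. The sum of the 5 names was 4228, 5650 and 5844 CPM in heat replicates 1 to 3 and 5053, 6704 and 3894 CPM in control replicates 1 to 3. Most of the sum was miR-451-x. Of the 5 tested names 3 had a fold below 1 and 2 above, with a median log2 fold change of -0.08, and none was called. The names did not move together: miR-144-y was at 0.47 ± 0.25 and miR-486-x at -2.01 ± 1.06 (SE, unadjusted p = 0.0890 and 0.0957 in edgeR). Heat replicate 2, the lowest library for miR-142 and miR-223, had a sum in CPM between those of heat replicates 1 and 3. As a share of total counts, however, its sum was the lowest of the heat libraries. Set against the erythrocyte sum, the miR-142 family had 602, 149 and 217 counts per 1000 in heat replicates 1 to 3 and 534, 349.7 and 294 in control replicates 1 to 3, so the groups overlapped on this scale too. Per 1000 counts of miR-122 it had 13.5, 2.85 and 4.62 counts in heat and 9.11, 15.7 and 3.56 counts in control.

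Lists for the remaining cell types gave no call either. For hepatocyte miRNAs the fold was below 1 in 6 of 8 tested names and the median log2 fold change was -0.12, and for miR-126, an endothelial miRNA, it was below 1 in 0 of 2 with a median of 0.09. The stromal list had 4 of 8 such names (median 0.001), the pancreatic list 2 of 4 (median -0.22) and the muscle list 4 of 4 (median -0.22). The share among all known names tested was 64.7%. The summed hepatocyte level was 228413, 364791 and 338244 CPM in heat replicates 1 to 3 and 351257, 194709 and 376542 CPM in control replicates 1 to 3, lowest in the libraries that stood apart, and most of it was miR-122-x. The other strand, miR-122-y, went the other way, with its highest values in those libraries, at 1017, 371 and 380.4 CPM in heat and 692, 1238 and 382 CPM in control, as did miR-194-y above. The pancreatic sum was 291, 184 and 209 CPM in heat and 194, 346 and 150.1 CPM in control. Its name miR-216-x was highest in the same pair of libraries, at 134 CPM in heat replicate 1 and 193 CPM in control replicate 2, but its name miR-375-y was highest in heat replicate 3, at 194 CPM. miR-142-y and miR-223-y were above their means in the same pair of libraries, at deviations of 0.54 to 1.13 on the log2 scale. They were above them in control replicate 1 too, at 0.87 for miR-142-y and 0.05 for miR-223-y, where the pancreatic sum was at -0.18. What part these other cell types have in the levels of miR-142-y and miR-223-y was not tested.

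**Figure D5:**
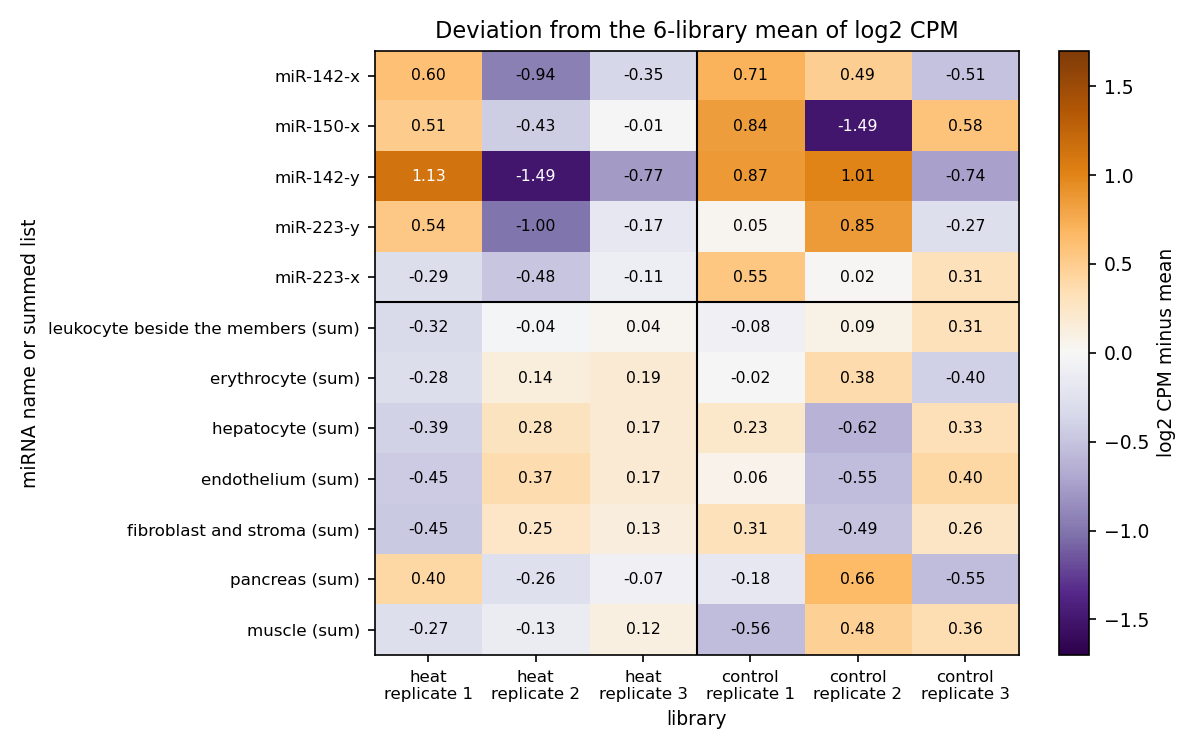
Deviation of log2 CPM from its mean over the 6 libraries for the 5 tested names (upper rows) and the summed comparison lists (lower rows), with heat libraries left of control. miR-142-x, miR-142-y and miR-223-y are positive in heat replicate 1 and in control replicates 1 and 2. The hepatocyte, endothelial and stromal sums, led by miR-122-x, miR-126-y and miR-199-x, are negative in heat replicate 1 and control replicate 2 and positive in control replicate 1. Other names of the hepatocyte and stromal lists are not all low in that pair, and miR-150-x is at -1.49 in control replicate 2.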

How the data were processed

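The deposited files give each library's count for every miRNA name, with its sequence and length. These whole-number counts were used as deposited by the authors. Aligner, miRNA database and build: not given in the sources used here. An extraction text in the labels speaks of retina and rRNA-depleted RNA, which does not describe small RNA libraries. Groups and replicate numbers follow the sample titles.

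Names were kept by filterByExpr at a minimum count of 10, scaled by TMM and tested for a difference between heat and control with the quasi-likelihood F test of edgeR 4.0.16 (R 4.3.3, robust estimation), and p-values were adjusted by Benjamini-Hochberg over all names. A further fit used family sums, with predicted sequences taken once each and TMM factors computed anew. Each standard error is the log2 fold change over the root of F. Ratios were compared by exact permutation (scipy 1.17.1). DESeq2 1.42.0 was an alternative. The edgeR procedure was tested on simulated counts, and figures were drawn with matplotlib 3.10.9.

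The members, the lists, the tests and the alternatives were chosen with earlier results of these data known. Named were all rows of the 3 families, rows sharing a member's seed, the listed cell-type miRNAs, of which only summaries are given for most, and the 3 known names most like each family.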

Additional observations from a re-analysis of the deposited data

How the results depend on the processing

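No log2 fold change of miR-142, miR-223 or miR-150, by name or by family, passed the threshold in any of 121 values under alternatives (lowest adjusted p = 0.530), and 113 kept their direction. The count of 0 names called became 23 without a count filter, 2 with the DESeq2 Wald test and 2 with it after the filter. For families and sequences it became 6, 1 and 1 in the same settings. The cause was not tested. Over single libraries left out, both counts stayed at 0. The same fits gave -0.91 to -0.10 for miR-142-x, -1.63 to -0.09 for miR-142-y, -1.01 to -0.11 for the miR-142 family, -0.65 to 0.14 for miR-150-x, -0.80 to 0.0068 for miR-223-y, -0.63 to 0.20 for the miR-150 family and -0.86 to 0.012 for the miR-223 family. For miR-223-x, with 8 to 21 counts a library, they gave -0.71 to -0.47. The ratio differences, in log2, ran from 0.098 to 0.64 for miR-142-x over miR-142-y, -0.62 to 0.21 for miR-223-x over miR-223-y, -0.27 to 0.21 for miR-223 over miR-142, -0.36 to 1.195 for miR-150 over miR-142 and -0.57 to 1.01 for miR-150 over miR-223. A pseudocount of 5 turned miR-223-x over miR-223-y to 0.0043. With heat replicate 1 and control replicate 2 both left out, the miR-150 ratios turned to -0.17 over miR-142 and -0.45 over miR-223. Pairing by replicate number was not used in the reported fits. Same-number correlations of deviations over 249 known names were -0.05, -0.32 and 0.15, and the closest library of the other group had the same number for 2 of 6. The libraries that stood apart carry different numbers, so these values do not settle whether equal numbers were paired. The replicate block called 0 names and turned miR-150-x to 0.034 and the miR-150 family to 0.062. Scaling to miR-122 or to erythrocyte miRNAs shifts all names of a library alike, so the size of its shift says nothing of single names. On both scales the groups of miR-223-x overlapped. miR-223-x has no value at a minimum count of 20. With 3 libraries a group the median standard error of known names was 0.42 in log2.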
